A study of Marchantia polymorpha subsp. ruderalis with 24 samples.

Results

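The 100 most abundant transcripts of the thallus are described here, as they stood through 2 days of constant light in the liverwort Marchantia polymorpha. Each gene's counts were divided by the total of its library and scaled to CPM, counts out of every 1000000 in the library. The members were chosen by their mean CPM over all 24 libraries, leaving out identifiers that begin with MpVg, those of the V chromosome of the male. They are the first 100 of 20574 genes in the table. Their levels are thus a description and were not tested.

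In most tissues a small number of genes supplies a large part of the messenger RNA, and in green plant tissue these genes commonly serve photosynthesis, protein synthesis, water transport, the cytoskeleton and protection from oxidants. Plants carry a circadian clock, which keeps a daily rhythm of transcript levels going after the cycle of light and dark has stopped. Transcripts that many users treat as steady references, such as those of actin and elongation factor, usually come from the abundant class.

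The plants were of the male strain Takaragaike-1 (Tak-1), a wild-type laboratory strain with a haploid plant body, the thallus. They were grown from gemmae, the clonal propagules of the thallus, under 12 h of light and 12 h of dark and were then moved to constant light. Tissue labelled young thallus was taken 24, 30, 36, 42, 48, 54, 60 and 66 h after the move, with 3 libraries of poly(A)-selected RNA at each of the 8 times. No mutant and no library kept under light and dark was analysed here, although the series title names DE-ETIOLATED1, a repressor of light signalling. All groups thus share one genotype and the same light, and they differ by the hours since the move. The first day means 24 to 42 h below and the second day 48 to 66 h. The labels do not give the hour of the light and dark cycle at which plants were moved, so a peak is given in hours after the move, modulo 24.

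Library totals ran from 14929708 to 59194999 counts, and the lowest count of any member in any library was 8542. Replicates of one time differed by far more than counting noise, with a chi-square per degree of freedom from 12.3 to 168. Whether replicates were separate cultures is not stated, so p-values cover the spread among the libraries at hand, and that spread may be technical. The 4 libraries richest in the V chromosome gene MpVg01240 were replicate 3 of 4 times. That gene alone made up 7.22% of the counts at 24 h and 4.44% at 30 h, and then 2.39% at 48 h and 4.27% at 66 h. In the other 20 libraries it made up at most 2.13%, in replicate 2 of 60 h, which is close to the 48 h value. These 4 libraries were singled out after their values were seen, and the share of counts and the counts of calls are given with and without them. The labels give the tissue as young thallus, whereas the text on RNA extraction speaks of gemmae, and which of them was frozen is not settled here. In whole tissue fewer cells of a type and less RNA per cell cannot be told apart. The rhizoid list held 1 marker gene, which stood at 0.866 to 2.75 CPM over the libraries. The summed markers of gemma cups and gemmae stood at 79.5 to 121 CPM. Those of oil bodies stood at 32.6 to 59.8 CPM and those of sexual organs and sperm at 209 to 277 CPM. No member belongs to these lists.

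The 100 genes held 22.9% ± 1.41 (SD, n = 24 libraries) of all counts, from 19.7% in replicate 3 of 66 h to 25.4% in replicate 2 of 60 h. The leading gene held 0.880%, the first 10 genes held 6.15%, the first 20 held 9.73% and the first 50 held 16.5%. Counted from the top over all identifiers, 655 genes were needed to reach 50% of the counts. On the first day the share was 21.9% ± 1.2 at 24 h, then 22.2% ± 1.79 at 30 h, 22.3% ± 0.119 at 36 h and finally 23.3% ± 0.448 at 42 h (SD, n = 3). On the second day it was 23.3% ± 1.28 at 48 h, and the later times had 24.2% ± 1.27 at 54 h, 23.8% ± 1.42 at 60 h and 22.4% ± 2.34 at 66 h (SD, n = 3). Apart from 36 and 42 h, the libraries of neighbouring times overlapped. The lowest library of 24 h, of 30 h, of 48 h and of 66 h was in each case replicate 3, one of the libraries rich in MpVg01240. Plain totals include the counts of that gene. With all MpVg counts left out of the totals, replicate 3 stayed lowest at 30, 48 and 66 h. At 24 h it then held 22.4%, against 22.1% in replicate 1. The time means were then 22.7%, 22.8%, 22.5% and 23.6% on the first day and 23.7%, 24.5%, 24.2% and 23.0% on the second. With plain totals and without these 4 libraries the share was 23.4% ± 1.04 (SD, n = 20), from 21.9% to 25.4%. The pairs of libraries then left held 21.9% and 23.1% at 24 h, 22.03% and 24.1% at 30 h, 23.1% and 24.6% at 48 h, and 23.5% and 23.9% at 66 h.

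**Figure D1:**
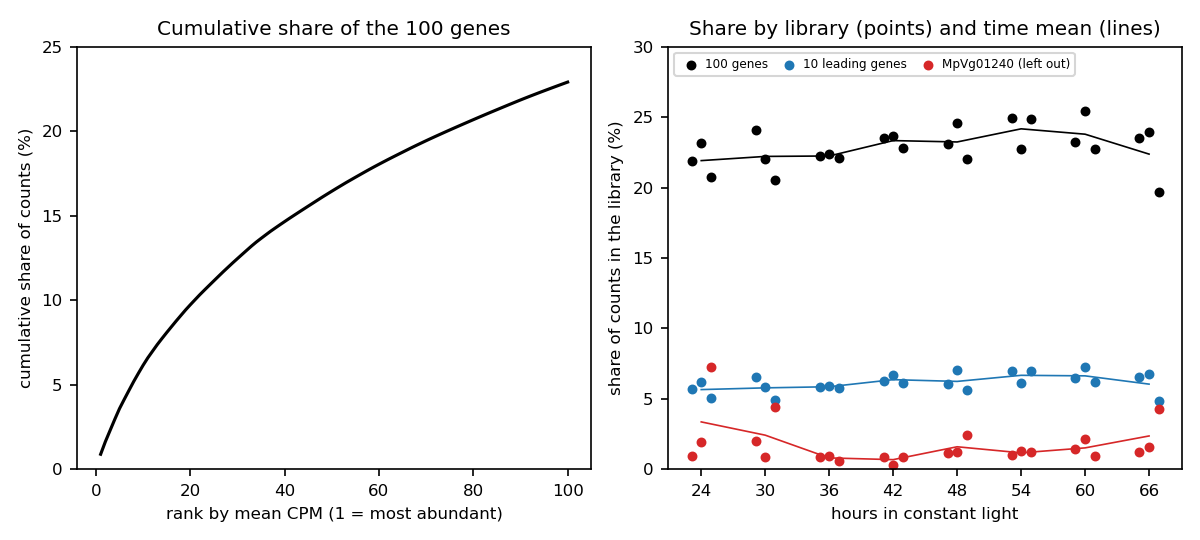
Left, cumulative share of all counts (%) against rank by mean CPM, reaching 22.9% at rank 100. Right, share of counts (%) in each library (points) against hours in constant light, with time means as lines, for the 100 genes, the 10 leading genes and the left-out gene MpVg01240; the 100 genes stay between 19.7% and 25.4% while MpVg01240 reaches 7.22%.

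Each library had mostly the same leading genes. Of the 100 most abundant genes of any one library, 89 to 98 were members, and 68 members stood in the first 100 of all 24 libraries. Ranking the first day alone gave 97 of the same genes, and ranking the second day alone gave 98. At the border, Mp6g08120, Mp2g07880 and Mp2g25770 were the last inside, with mean levels of 1032, 1030 and 1022 CPM. Mp1g22070, Mp4g05970 and Mp3g05790 were the first outside, with 1021, 1018 and 994 CPM.

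Every member matched an entry of the RefSeq gene table of assembly MpTak2_v7.1, but only 11 carried a symbol there. Of the 100 entries, 99 were protein coding and 1, Mp4g10855, had the biotype of a microRNA. The other 89 have no name in the sources used here, so they are called by their identifiers and no role is given for them. No coordinates are printed, because the sources used here do not give the genome build behind the counts. CPM is not divided by transcript length, so a higher CPM means more counts and not necessarily more molecules.

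The leading gene, Mp4g10850, averaged 8795 CPM, and its libraries ran from 6528 to 11876 CPM with a median of 8622. Mp3g03990 followed at 7440 CPM, then Mp4g15070 at 6645, Mp4g15080 at 6606, Mp8g15740 at 6342, Mp7g09180 at 5438, Mp4g06050 at 5312 and Mp2g12010 at 5251. MpTIP1 at 4903 and Mp2g12020 at 4758 CPM closed the first 10. Levels fell slowly with rank, to a median of 1713 CPM over the 100 genes. Neighbours among the first 10 had overlapping library ranges: Mp4g15070 and Mp4g15080, for example, ranged over 4796 to 8153 and 4147 to 8301 CPM.

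Among the 11 members with a symbol, 2 belong to the aquaporins, the membrane channels for water. MpTIP1 (Mp1g20890, rank 9) takes its name from the tonoplast intrinsic proteins, which sit in the vacuole membrane of flowering plants, and it ranged from 3558 to 6132 CPM. MpPIP2 (Mp4g17210, rank 16), named after the plasma membrane intrinsic proteins, ranged from 2723 to 4095 CPM. MpAVP3 (Mp4g18110, rank 95), named after the vacuolar proton pyrophosphatases, which pump protons into the vacuole, ranged from 826 to 1317 CPM. The list of aquaporins and proton pumps had 25 tested genes, of which these 3 were members, and the median gene of that list stood at 75.5 CPM.

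Protein synthesis was represented by MpEF1 (Mp3g23400, rank 17; mean 3402 CPM), named after the elongation factor that brings aminoacyl-tRNA to the ribosome, and by MpRACK1 (Mp3g15630, rank 81; 1203 CPM), a scaffold protein bound to the small ribosomal subunit in other eukaryotes. MpFBA2 (Mp6g07690, rank 19; 3273 CPM) is named after fructose-bisphosphate aldolase, an enzyme of the Calvin cycle and of glycolysis. The 3 other aldolase genes with a symbol were not members: MpFBA3 stood at 542, MpFBA4 at 388 and MpFBA1 at 154 CPM. MpCAT2 (Mp4g06600, rank 37; 2084 CPM) is named after catalase, which breaks down hydrogen peroxide.

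MpGRP7 (Mp1g18780, rank 61; 1467 CPM) shares its symbol with a glycine-rich RNA-binding protein that in Arabidopsis is under clock control. The actin genes MpACTIN7 (Mp6g11010, rank 65; 1400 CPM) and MpACT1 (Mp6g10990, rank 73; 1263 CPM) encode the protein of the microfilaments. MpCupin83 (Mp5g13860, rank 85; 1166 CPM) bears the name of the cupins, proteins that share a barrel-shaped fold. The only small-subunit rubisco gene with a symbol, MpRBCS (Mp4g09890), ranked 604 at 256 CPM. No gene of the lists for light harvesting, photosystem subunits, ribosomal proteins or ubiquitin carried a symbol, so whether unnamed members belong to them was not tested.

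**Figure D2:**
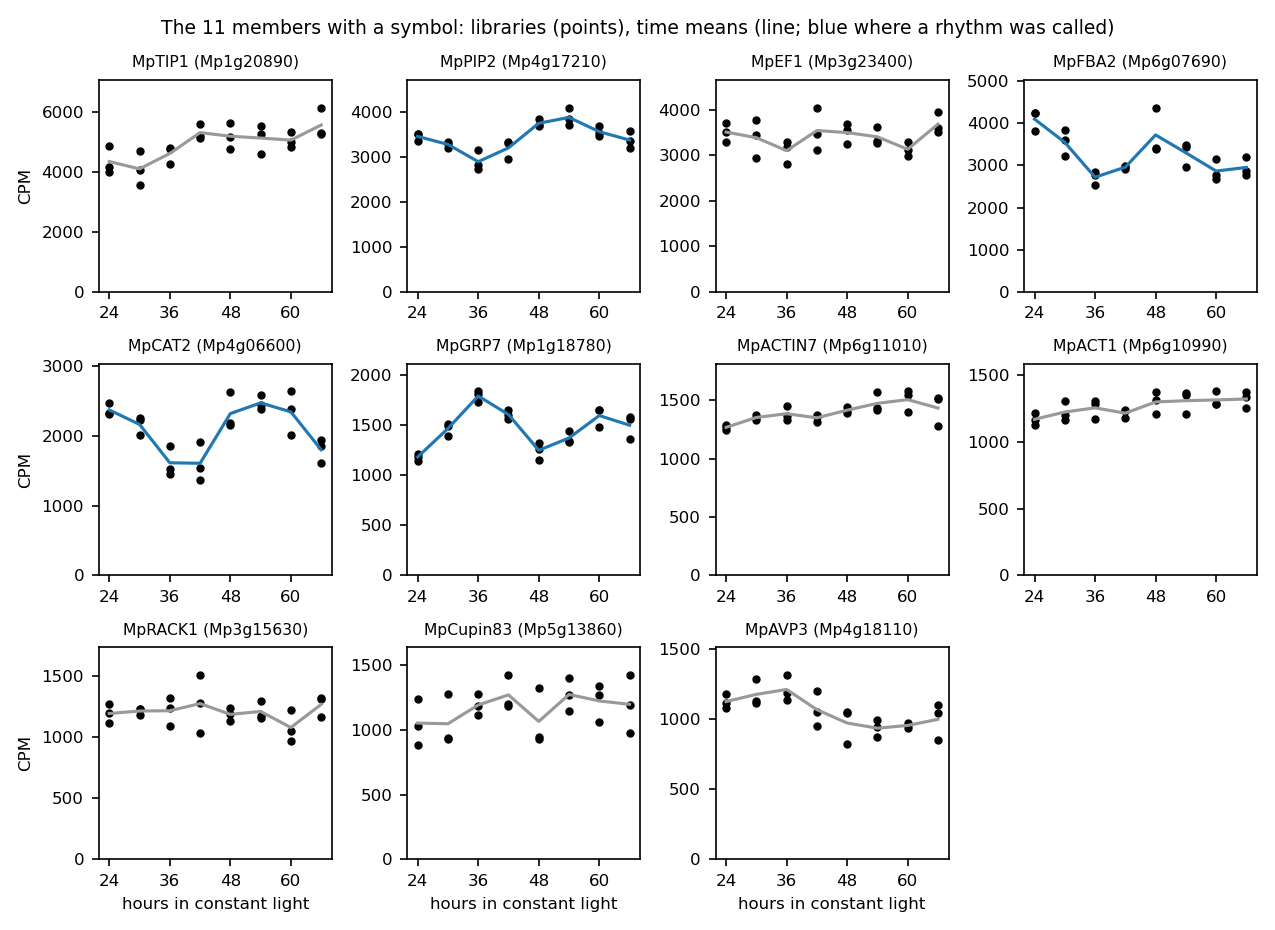
CPM of the 11 members with a symbol against hours in constant light, 3 libraries per time as points and the time mean as a line, blue where a 24 h rhythm was called. Each axis starts at 0; MpFBA2, MpCAT2 and MpPIP2 have low points at 36 or 42 h, MpGRP7 runs the other way, and MpEF1 and the actins stay nearly level.

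Whether the members followed a daily rhythm was asked with a 24 h cosine and sine beside a linear drift, fitted to all 14414 genes that passed the filter on low counts, all 100 members among them. Fitted rhythms, day changes and tests use libraries scaled by TMM, a factor that allows for differences in composition. Time means and the folds between them use plain CPM. A rhythm was called in 27 members, or 27.0%, against a background of 18.7% of all tested genes (edgeR quasi-likelihood test, adjusted p under 0.05). The next 100 genes by rank had 19.0% and the 800 after those had 32.4%, so the members lie between these bands. A fitted rhythm of 1.5 fold or more between peak and trough was called in 9 members, against 8.68% of all tested genes. The called rhythms of members ran from 1.24 to 2.2 fold with a median of 1.45, and the median over all called genes was 1.47. With a linear and a day term in the model together, the call remained in 6 of the 27: Mp8g05910, Mp7g06790, MpGRP7, Mp2g20880, Mp7g08940 and Mp1g04190, against a background of 7.0%.

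Of the 27 rhythmic members, 12 peaked within 3 h of 0 h, 8 within 3 h of 6 h and 7 within 3 h of 12 h, which accounts for all of them. That is 44.4%, 29.6% and 25.9%. Over all called genes the shares were 33.0%, 18.7% and 35.0%, and 13.3% peaked within 3 h of 18 h. Regardless of any call, 41 members had their highest time mean at the same phase on both days, against 40.3% of all tested genes, and 19 had both the highest and the lowest mean at the same phases, against 18.5%.

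**Figure D3:**
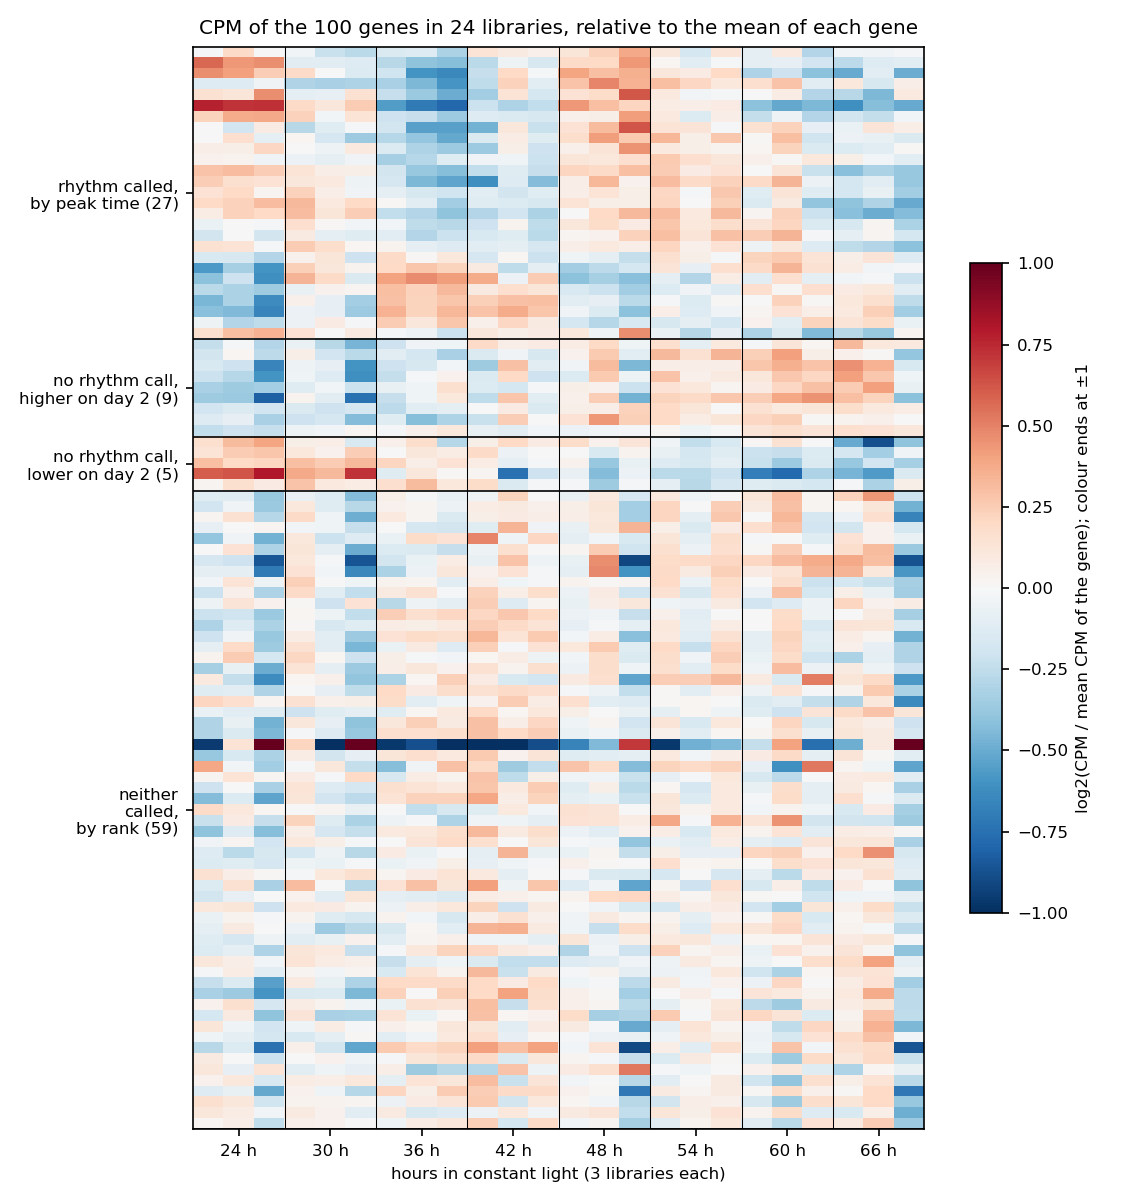
CPM of the 100 genes (rows) in 24 libraries (columns, 3 per time), as log2 of the ratio to each gene's mean; colour ends at ±1. The 27 rhythmic genes stand at the top in order of peak, followed by 9 without a rhythm call that were higher on the second day, 5 that were lower and 59 with neither call; replicate 3 of 24, 30, 48 and 66 h shows as blue columns in many rows.

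The widest called rhythm belonged to Mp8g05910, rank 60. Its libraries held 2523, 2445 and 2457 CPM at 24 h, 1690, 1601 and 1771 at 30 h, 1006, 906 and 862 at 36 h and 1276, 1195 and 1249 at 42 h. On the second day they held 2001, 1825 and 1724 CPM at 48 h, 1562, 1554 and 1567 at 54 h, 1118, 1040 and 1084 at 60 h and 971, 1104 and 1044 at 66 h. The libraries of 24 and of 48 h lie above all others of their day without overlap, and the second low lasted through 60 and 66 h. The fitted rhythm was 1.14 ± 0.12 on the log2 scale (SE), or 2.2 fold, and the fitted peak lay at 1.72 h (edgeR adjusted p = 3.8e-07).

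Mp2g20880 (rank 88) and Mp4g05980 (rank 96) peaked near the same hour. Mp2g20880 went from 1624 ± 84.8 CPM at 24 h to 895 ± 49.9 at 36 h, and from 1402 ± 135 at 48 h to 1028 ± 57 at 66 h (SD, n = 3). Its fitted rhythm was 1.56 fold, peaking at 0.862 h (edgeR adjusted p = 0.00031). Mp4g05980 went from 1362 ± 104 at 24 h to 759 ± 135 CPM at 36 h and from 1337 ± 44.6 at 48 h to 820 ± 134 at 66 h (SD, n = 3). Its rhythm was 1.74 fold, and the fitted peak lay at 1.46 h (edgeR adjusted p = 0.00013). With linear and day terms both in the model Mp4g05980 was no longer called (edgeR adjusted p = 0.062, the highest of its alternatives, which began at 2.0e-08). The gene just outside the 100 with the neighbouring number, Mp4g05970, had a peak at 1.87 h and a fitted rhythm of 2.13 fold.

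Mp3g03990, the second most abundant gene, had the widest called rhythm of the first 20. Its libraries held 7834, 8725 and 8520 CPM at 24 h, 9193, 8072 and 8809 at 30 h, 6267, 6072 and 5624 at 36 h and 6062, 6513 and 5983 at 42 h. They held 7444, 8527 and 9303 CPM at 48 h, 9218, 7977 and 9340 at 54 h, 7574, 8748 and 6401 at 60 h and 5569, 5273 and 5519 at 66 h. The 36 and 42 h libraries all lie below those of 24, 30, 48 and 54 h, and the low of the second day was reached at 66 h. The fitted rhythm was 0.75 ± 0.12 log2 (SE), or 1.68 fold, and the fitted peak lay at 4.23 h (edgeR adjusted p = 0.00018). Over its alternatives the adjusted p ran from 2.9e-08 to 0.18, the highest value coming with linear and day terms together, where the call was lost.

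MpCAT2 had a similar course, with 2369 ± 86.8 CPM at 24 h, 1612 ± 218 at 36 h and 1605 ± 278 at 42 h, then 2470 ± 103 at 54 h and 1799 ± 173 at 66 h (SD, n = 3). Its rhythm was 1.62 fold, peaking at 3.90 h (edgeR adjusted p = 0.0029). The call was lost at a 22 h period and with linear and day terms together, and over all alternatives the edgeR, limma or DESeq2 adjusted p ran from 5.3e-05 to 0.67. Mp7g04850 (rank 62) went from 1766 CPM at 24 h to 1162 at 36 h and from 1716 at 48 h to 1125 at 66 h, a rhythm of 1.57 fold (edgeR adjusted p = 0.00037), and its call was lost under the same alternatives, with an adjusted p of up to 0.75.

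MpFBA2 stood at 4103 ± 248 CPM at 24 h and 2721 ± 157 at 36 h, then at 3726 ± 562 at 48 h and 2867 ± 259 at 60 h (SD, n = 3). The 24 h libraries did not overlap those of 36 h, and the 48 h libraries, 3393, 3410 and 4375 CPM, did not overlap those of 60 h. Its rhythm was 1.45 fold, peaking at 1.87 h (edgeR adjusted p = 0.0010), and it was not called once linear and day terms were both fitted (edgeR adjusted p = 0.30, within a range from 2.9e-06 to 0.30 over alternatives). Of the 3 other aldolase genes with a symbol, MpFBA4 had a called rhythm of 1.34 fold and MpFBA3 one of 1.2 fold, while MpFBA1 was not called (edgeR adjusted p = 0.0066, 0.031 and 0.61).

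MpPIP2 had a smaller rhythm of 1.3 fold, with 2723, 2809 and 3143 CPM at 36 h and 4095, 3837 and 3699 CPM at 54 h, and the fitted peak lay at 2.98 h (edgeR adjusted p = 0.0030). That call was lost without the drift term, at a period of 22 h and with linear and day terms together, and the adjusted p over all alternatives ran from 7.0e-06 to 0.61. Mp2g15250 (rank 14) had a rhythm of 1.34 fold, peaking at 3.93 h (edgeR adjusted p = 0.0091), a call that ended at 22 h and with both linear and day terms (adjusted p of up to 0.53 over alternatives that began at 0.00042).

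The 7 members that peaked near 12 h had lower time means at 24 and 48 h than at 36 and 60 h. Mp7g06790 (rank 29) held 1750, 2073 and 1720 CPM at 24 h, 3084, 2816 and 2669 at 30 h, 3002, 3164 and 3046 at 36 h and 2776, 2192 and 2442 at 42 h. It held 2052, 2180 and 2306 CPM at 48 h, 2847, 2465 and 2928 at 54 h, 2982, 3309 and 2898 at 60 h and 2743, 2566 and 2592 at 66 h. On each day the first time lay below the next without overlap. The rhythm was 0.60 ± 0.09 log2 (SE), or 1.52 fold, and the fitted peak lay at 10.4 h (edgeR adjusted p = 7.1e-05).

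MpGRP7 held 1214, 1181 and 1144 CPM at 24 h and 1804, 1724 and 1834 at 36 h, then 1323, 1264 and 1152 at 48 h and 1652, 1475 and 1649 at 60 h. The libraries of these lows and highs did not overlap on either day. Its rhythm was 0.50 ± 0.07 log2 (SE), or 1.41 fold, and the fitted peak lay at 12.8 h (edgeR adjusted p = 2.3e-05). Mp7g08940 (rank 54) stood at 1213 ± 169 CPM at 24 h and 2160 ± 57.8 at 36 h on the first day, and at 1226 ± 40.9 at 48 h and 1596 ± 178 at 60 h on the second (SD, n = 3). Its rhythm was 1.62 fold, peaking at 12.4 h (edgeR adjusted p = 0.00094). In the remaining 15 rhythmic members the call came with fitted rhythms of 1.24 to 1.51 fold, the widest in Mp2g10580 and the narrowest in Mp1g04190.

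Whether levels differed between the days was asked by setting the mean of 48, 54, 60 and 66 h against that of 24, 30, 36 and 42 h, so that each phase is on both sides. The members called numbered 23, or 23.0%, against a background of 34.6% (edgeR adjusted p under 0.05). Of these, 15 were higher on the second day, against 18.3% of all tested genes, and 8 were lower, against 16.3%. The median size of the day change, without its sign, was 0.09 log2 for members and 0.16 over all tested genes. The next 100 genes by rank had 20.0% called and a median of 0.08 log2, and the 800 after those had 51.2% and 0.15 log2. Fewer and smaller day changes were thus shared with the next 100 genes. The largest rise was 0.40 log2 and the largest fall 0.58 log2, which is 1.49 fold.

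The 6 largest called rises were those of Mp7g08890 (0.40 log2), Mp2g07510 (0.37), Mp4g18090 (0.34), Mp2g12030 (0.33), Mp2g07490 (0.33) and Mp1g21010 (0.32). Mp7g08890 (rank 21) held 1976 to 3482 CPM on the first day and 2657 to 4169 on the second, so its days overlapped. It was called both for the day change, 0.40 ± 0.07 log2 (SE; edgeR adjusted p = 7.3e-05), and for a rhythm of 1.46 fold with a peak at 1.49 h. Mp2g07490 and Mp2g07510, with 1 gene between them in the order of MpTak2_v7.1, rose from time means of 3121 and 1930 CPM at 24 h to 4836 and 3522 at 60 h.

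Among the falls, Mp4g11410 (rank 89) was the largest. Its libraries held 1741, 1775 and 1996 CPM at 24 h, 1486, 1435 and 1888 at 30 h, 1053, 1239 and 1152 at 36 h and 1169, 682 and 993 at 42 h. From 48 h on they held 1089, 846 and 1100, then 950, 950 and 985, then 713, 667 and 926, and at 66 h 831, 773 and 1037 CPM. The 24 and 30 h libraries all lie above every later one. The difference between the days was −0.58 ± 0.08 log2 (SE; edgeR adjusted p = 1.9e-05).

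Mp1g11790 (rank 80) fell by 0.37 ± 0.05 log2 (SE; edgeR adjusted p = 1.4e-05), from 1433 ± 54.8 CPM at 24 h to 986 ± 69.8 at 66 h (SD, n = 3). Mp1g04570 and MpAVP3 each fell by 0.25 log2 and Mp3g19350 by 0.24. Mp3g19350 (rank 51) stood between 1400 and 2243 CPM in the libraries up to 60 h and at 1201, 929 and 1288 CPM at 66 h, so that its fall lies mostly in the last time. MpAVP3 had time means of 1127 to 1213 CPM from 24 to 36 h, 1069 CPM at 42 h and 936 to 1000 CPM on the second day (edgeR adjusted p = 0.0028).

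Both aquaporins were higher on the second day. MpPIP2 rose by 0.19 ± 0.05 log2 (SE; edgeR adjusted p = 0.0042) and MpTIP1 by 0.20 ± 0.07 log2 (SE; edgeR adjusted p = 0.028). The call of MpTIP1 was lost on leaving out any one of 8 libraries, replicate 3 of 24 h, replicates 2 and 3 of 30 h, replicate 1 of 36 h, replicate 2 of 48 h, replicate 1 of 54 h, replicate 2 of 60 h or replicate 1 of 66 h (edgeR adjusted p = 0.0509 to 0.061). It was also lost with no filter on low counts (edgeR adjusted p = 0.062). In the list of aquaporins and proton pumps 17 of 25 tested genes fell, 3 rose and 3 were called rhythmic, with a median day change of −0.25 log2 against 0.01 over all tested genes. The 3 that rose were the aquaporins MpTIP1, MpPIP2 and MpPIP2-like, the last at a mean of 2.64 CPM, while MpPIP1 was not called. Those that fell included proton pump genes such as MpHA5 and MpAVP3, so the pooled counts do not describe the aquaporins alone. For this list and the following ones, the shares over all tested genes are 18.7% rhythmic, 18.3% higher and 16.3% lower. Of the 16 antioxidant genes tested, MpCAT2 was the only member, and 4 of the 16 were called rhythmic, 3 higher and 4 lower on the second day. Of the 6 tubulin and actin genes tested, 2 were members, 1 was called rhythmic and 1 was lower on the second day. None of the 5 tested heat shock genes was a member, and 1 was called rhythmic and 4 lower on the second day.

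The day calls of 3 more genes also rested on single libraries. MpCAT2 rose by 0.22 log2 (edgeR adjusted p = 0.022), and the call was lost without replicate 2 of 48 h (edgeR adjusted p = 0.0503). Mp7g08940 fell by 0.23 log2 (edgeR adjusted p = 0.025), which was lost without replicate 2 of 24 h, replicate 1 of 30 h, replicate 1 of 42 h or replicate 2 of 54 h (edgeR adjusted p = 0.0507 to 0.0553). Mp8g05910 fell by 0.14 log2 (edgeR adjusted p = 0.025), which was lost without replicate 1 of 36 h (0.0527) and without the 4 libraries rich in MpVg01240 (edgeR adjusted p = 0.13).

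**Figure D4:**
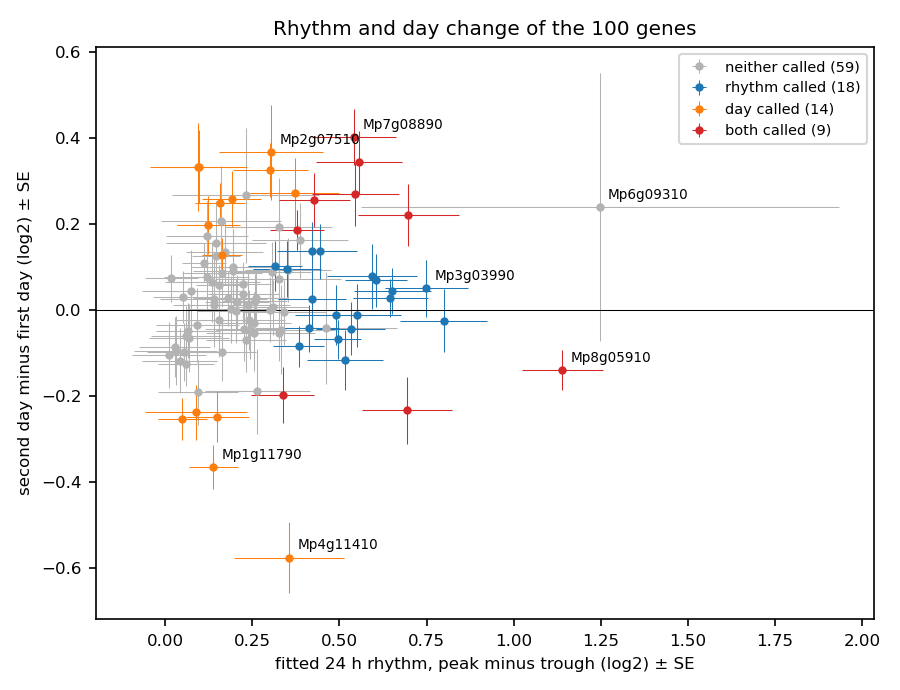
Difference between the second and the first day (log2, vertical axis) against fitted 24 h rhythm from peak to trough (log2, horizontal axis) for the 100 genes, with standard errors as bars; colours mark 18 genes called for rhythm alone, 14 for day alone, 9 for both and 59 for neither. Mp8g05910 lies farthest right among the called genes at 1.14, Mp4g11410 lowest at −0.58, and Mp6g09310 has by far the longest bars.

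A test of any difference between the 8 times, which assumes no shape, called 34 members against 36.8% of all tested genes (edgeR adjusted p under 0.05), and 24 of the 27 rhythmic members were among them. Of the next 100 genes by rank 28.0% were called, and of the 800 genes that follow rank 200, 60.1%. The fold between the highest and the lowest time mean ran from 1.12 in Mp6g08120 to 4.51 in Mp6g09310, with a median of 1.36 over members and 1.5 over all tested genes. It reached 2 fold in 3 members: Mp8g05910, Mp4g11410 and Mp6g09310. The median spread between replicates of one time was 0.176 log2 (SD) for members and 0.186 for the next 100 genes by rank. It was 0.142 for the 800 genes after rank 200 and 0.190 for all tested genes. Counting error was at most 1.08% for any member in any library, so it is a small part of that spread. In 58 members none of the 3 tests made a call, which does not show that they were constant.

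Among these genes without a call were several that serve as references elsewhere. MpEF1 had time means between 3095 and 3679 CPM, MpRACK1 between 1077 and 1272, MpACT1 between 1168 and 1321 and MpACTIN7 between 1269 and 1507 CPM. The actins lie next to each other in the order of MpTak2_v7.1, and the ratio of MpACTIN7 to MpACT1 stayed between 1.02 and 1.23 in all 24 libraries. The day change was 0.11 log2 for MpACT1 and 0.13 log2 for MpACTIN7, which was not called (edgeR adjusted p = 0.063 and 0.057). Without the 4 libraries rich in MpVg01240 these 2 changes were called (edgeR adjusted p = 0.0094 and 0.011).

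Some neighbouring members kept a close ratio to each other. Mp4g15070 and Mp4g15080, neighbours in MpTak2_v7.1 at ranks 3 and 4, had a ratio of 0.861 to 1.16 over the libraries, a narrower span than that of either gene alone. Mp2g12010, Mp2g12020 and Mp2g12030 follow one another in the same assembly, with ratios of 0.794 to 1.13 and 0.593 to 1.01 between neighbours. Mp4g10855, the entry with the microRNA biotype, stands next to the leading gene Mp4g10850 and held 0.144 to 0.186 of its counts in every library. Whether such neighbours share reads was not tested, because the strand setting and the treatment of overlapping or near-identical genes are not known, and their values are uncertain to that extent. The pairs of members with no gene between them had spreads of 1.21 to 1.70 fold in this ratio. Pairs with 1 gene between them varied more. Mp4g06050 held 1.85 to 3.78 times the level of Mp4g06030, a spread of 2.04 fold, and MpAVP3 held 0.414 to 1.2 times that of Mp4g18090, a spread of 2.89 fold. For Mp2g07490 and Mp2g07510 the spread was 1.37 fold. The median spread over all 4950 pairs of members was 1.99 fold. The steadiest pairs of members were not neighbours and had spreads of 1.14 to 1.2 fold, so a close ratio was not particular to neighbours.

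The 4 libraries richest in MpVg01240 differed from the rest in several of the most abundant genes. Of the 100 members, 14 were lower in each of these 4 libraries than in any of the other 20, against 0.569% of all tested genes. The share was 5.0% for the next 100 genes by rank and 2.5% for the 800 after those, so it fell with rank. Higher in each was 1 member, against 0.631%. That member kept a nearly constant ratio to MpVg01240, by which these libraries were chosen, so its place above is not a separate result. With TMM scaling 12 members lay below, 11 of them shared with the plain CPM, against 0.562% of all tested genes. Of the 10 leading genes 5 were among the 14: Mp4g10850, Mp4g15070, Mp4g15080, Mp2g12010 and Mp2g12020. Mp2g12010 held 2910, 2891, 2792 and 2878 CPM in replicate 3 of 24, 30, 48 and 66 h and 4552 to 7246 CPM in the other 20. Mp4g10850 held 6528 to 7846 CPM against 8022 to 11876, and Mp8g01210 held 612 to 795 against 940 to 1513 CPM.

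The gene that was higher in those 4 libraries is Mp6g09310 (rank 44). It held 6822, 4199, 2950 and 4690 CPM in replicate 3 of 24, 30, 48 and 66 h and 319 to 2395 CPM elsewhere, and its ratio to MpVg01240 stayed between 0.0941 and 0.124 in all 24 libraries. None of the 3 tests called it (edgeR adjusted p = 0.40 for the rhythm, 0.052 for the times and 0.59 for the days). It was a member through its mean of 1810 CPM, while its median library held 1291 CPM, and it stayed a member when genes were ranked by median CPM. What sets these libraries apart was not tested.

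**Figure D5:**
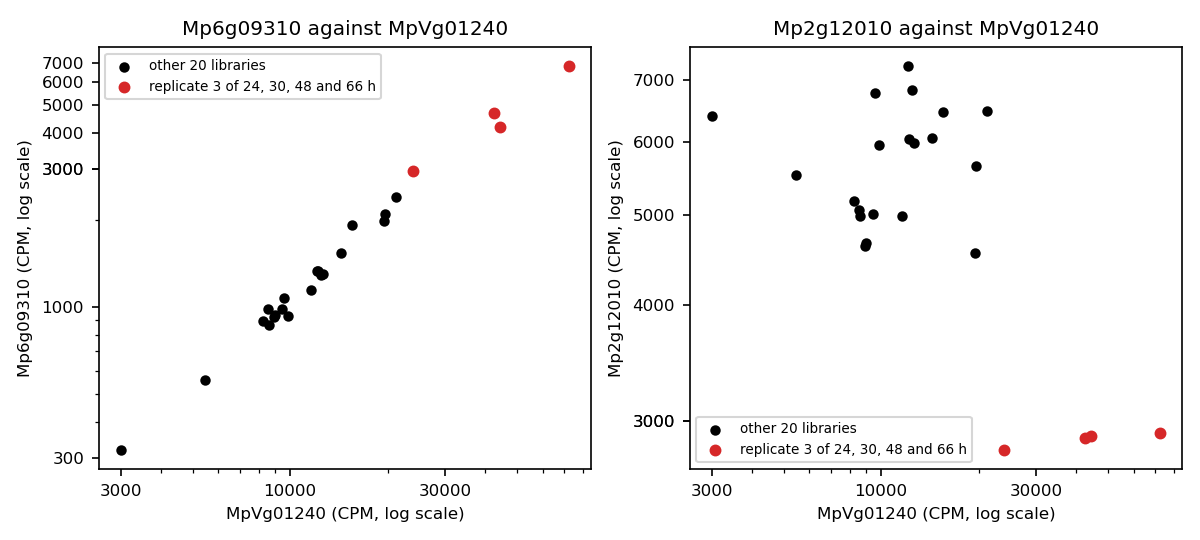
CPM of Mp6g09310 (left) and Mp2g12010 (right) against CPM of MpVg01240 in the 24 libraries, all on log scales, with replicate 3 of 24, 30, 48 and 66 h in red. Mp6g09310 rises along one line from 319 to 6822 CPM, whereas Mp2g12010 stands at 2792 to 2910 CPM in the 4 red libraries and at 4552 to 7246 CPM in the other 20.

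Without these 4 libraries a rhythm was called in 27 members, 25 of them shared with all libraries, while Mp8g07830 and Mp2g09990 were no longer called. A difference between times was called in 38 members and a day change in 29. The shares of all tested genes called without these libraries are not given here. Changes in these counts are therefore not read as particular to the members. Of those 29 day changes 22 were shared with all libraries. The 7 others, named because their calls changed, were Mp4g10850, Mp2g12010, Mp2g12020, Mp5g20760, Mp4g10855, MpACTIN7 and MpACT1.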

How the data were processed

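RNA was measured in 24 libraries of tissue labelled young thallus. Per the labels' protocols, RNA was bound to a column with DNase treatment and made into stranded, poly(A)-selected libraries. The authors deposited whole-number counts per gene, not normalized, for 20574 genes. The sources used here name neither aligner nor counting program, and give no strand setting and no genome build. Libraries were grouped by the labelled time, 3 to each.

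Plain CPM used the full library total, V chromosome genes included (207 rows). Tests used R 4.3.3 and edgeR 4.0.16 on the counts: filterByExpr with a minimum count of 10 kept 14414 genes and set aside 6160, TMM factors ran from 0.932 to 1.10, and glmQLFit and glmQLFTest were followed by Benjamini-Hochberg adjustment over all tested genes, with a threshold of 0.05. The scripts were tested on simulated data. Rhythm was tested as the cosine and sine of 24 h beside a linear term. Day change and any difference between times came from a model with 8 time means. Alternatives used limma-voom (limma 3.58.1) and DESeq2 1.42.0, other scalings, filters, periods and drift terms, and omission of single libraries.

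Names came from the RefSeq gene table of MpTak2_v7.1, joined on the digits of the identifier: 17641 identifiers matched and 3091 carried a symbol. A gene renumbered between annotation versions would carry a wrong symbol. Members and gene lists were chosen with earlier results of these data known. The patterns for aquaporins and pumps and for heat shock genes were narrowed after their matches were seen, to drop unrelated symbols. Genes named are the 20 most abundant, the 8 widest called rhythms, the 6 largest called rises and 6 falls between days. Also named are 3 genes on each side of the border, members with a symbol and some other genes of the gene lists. The others, MpVg01240, Mp6g09310, Mp8g01210, Mp5g20760, Mp2g10580, Mp1g04190, Mp8g07830, Mp2g09990, Mp4g06030 and Mp4g10855, were named after their values were seen. Sequence features were not analysed here.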

Additional observations from a re-analysis of the deposited data

How the results depend on the processing

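The share of counts was 16.5% for 50 genes and 31.0% for 200 genes in place of 100. At a threshold of 0.01 the day change was called in 14 members, 9 higher and 5 lower. The rhythm was called in 6 members with linear and day terms together and in 11 with a period of 22 h, where 11.9% of all tested genes were called; the cause was not tested. All other counts stayed within 1.5 times, with 21 to 33 rhythm calls over the other thresholds, models, scalings and tools, DESeq2 and limma-voom among them. Plain column totals and DESeq2 gave 49 and 47 members that differed between times, against 34. Shares of calls over all tested genes are given only for the main fit, the 22 h period and linear and day terms together. Leaving out each library in turn gave 25 to 31 rhythm calls, 30 to 44 for any difference between times, 21 to 30 for the day change (13 to 22 higher, 7 to 10 lower) and a share of 22.8% to 23.1%. A tally over part of the named genes followed day changes only where a call was already made. It followed rhythms of the most abundant genes, the widest called rhythms and members with a symbol. Within it, leaving out single libraries lost 14 day calls and gained 1 rhythm call. The other settings lost 12 rhythm and 3 day calls and gained 6 rhythm calls. Outside the tally, single omissions gave day calls to MpACTIN7 and Mp4g06030 (3 omissions each), MpACT1 (2), and Mp4g10850, Mp2g12010 and Mp4g10855 (1 each). Of 24 omissions, the rhythm call held in 22 for Mp8g07830 and 18 for Mp2g09990. No result of the tally changed direction in these settings.

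A replicate block gave 27 rhythm, 40 time and 24 day calls. Replicate numbers did not pair the libraries: correlations of same-numbered libraries ran from −0.541 to 0.495, and 9 of 24 libraries were closest to their own number.

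Leaving out the 3 or 4 libraries richest in MpVg01240, or Mp6g09310, was added after seeing the data, and without the 3 libraries 28 rhythm, 36 time and 26 day calls were made. The share was 23.4% without the 4 libraries and 22.7% without Mp6g09310. Ranking by CPM per coding length was not run. Depth limits little here, while 3 libraries per time limit the precision.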
